A study of Mus musculus with 18 samples.

Results

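The heat shock genes examined here encode the main cytosolic and mitochondrial chaperones. The list held 10 mouse genes: Hspa1a, Hspa1b, Hspa8, Hsph1, Dnajb1, Hsp90aa1, Hsp90ab1, Hspb1, Hspd1 and Hspe1. For each gene the probe set with the highest mean over the 18 arrays was used, and its other probe sets served as a check. A probe set was found for 9 of the 10 genes, out of 18193 genes with a probe set in all. Hsp90ab1, the constitutive cytosolic Hsp90, was not matched in the annotation used and has no value here. The 9 genes had 22 probe sets, and all 9 were above the filter on low signal, which kept 10916 genes. The list was chosen by gene function and with the log2 differences between the sorted fractions already known, so those differences are given below as a description and without a test.

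The study compared side population (SP) cells with non-SP cells in 3 mouse lung carcinoma lines, A2C12, betaD5 and cRAF_cMYC. SP cells are those that keep little Hoechst dye because they pump it out through ABC transporters. All 3 lines came from lung tumours of double transgenic mice carrying c-myc and c-raf, taken at 8 months of age, and had transformed spontaneously. The 6 groups were therefore A2C12 non-SP, A2C12 SP, betaD5 non-SP, betaD5 SP, cRAF_cMYC non-SP and cRAF_cMYC SP cells, with 3 arrays each, and the labels name no treatment. The labels do not say whether the 3 arrays of a group came from separate cultures or sorts, so p-values measure only the spread between these arrays, which may be technical. The transgenes' promoter and the clonality of the lines are not given in the labels.

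Heat shock proteins bind unfolded polypeptides and prevent their aggregation. In the cytosol, Hsp70 proteins work in cycles of ATP binding and hydrolysis that J-domain proteins such as Dnajb1 start and nucleotide exchange factors such as Hsph1 reset, and Hsp90 receives many of their clients. In the mitochondrial matrix, the Hspd1 chaperonin and its lid Hspe1 form a folding chamber. Under proteotoxic stress the heat shock factor Hsf1 binds inverted repeats of the motif NGAAN, called heat shock elements, upstream of most of these genes. Tumour cells often hold high levels of these chaperones without heat.

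The sequences upstream of the 2 inducible Hsp70 genes and of the mitochondrial pair show how closely the members of each pair are tied together at this level. RefSeq windows (GRCm38.p6) were matched for 7 of the 9 measured genes, and none was used for Hspa8 and Hsp90aa1. The windows below are the 250 bases before the annotated start of Hspa1a, at chr17:34972157-34972406 on the minus strand, and of Hspa1b, at chr17:34959239-34959488 on the minus strand. They are written 5′ to 3′ with the match to GAANNTTC, a repeat of paired units of the heat shock element, in capitals.
Hspa1a: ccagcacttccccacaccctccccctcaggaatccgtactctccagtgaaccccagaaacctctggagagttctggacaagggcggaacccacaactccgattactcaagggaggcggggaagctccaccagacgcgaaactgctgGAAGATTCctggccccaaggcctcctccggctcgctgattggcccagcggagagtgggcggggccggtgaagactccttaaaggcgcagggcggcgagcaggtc
Hspa1b: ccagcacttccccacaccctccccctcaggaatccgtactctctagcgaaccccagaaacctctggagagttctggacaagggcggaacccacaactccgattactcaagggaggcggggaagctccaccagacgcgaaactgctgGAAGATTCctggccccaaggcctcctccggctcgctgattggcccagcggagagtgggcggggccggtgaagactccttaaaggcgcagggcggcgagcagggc
Of these 250 bases, 247 were identical (98.8%). Each window held 1 match, GAAGATTC, from 104 to 97 bases before the start, and the CCAAT box read on the other strand from 67 to 63 bases before it.

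Hspe1 and Hspd1 lie head to head on chromosome 1, Hspe1 on the plus and Hspd1 on the minus strand, with annotated starts 216 bases apart at 55088148 and 55087932. The stretch between the starts, chr1:55087933-55088147, is shown on the plus strand, and the capitals mark overlapping matches to GAANNTTCNNGAA and its reverse complement. RefSeq also gives Hspd1 a second start, at 55088243.
Hspd1 to Hspe1: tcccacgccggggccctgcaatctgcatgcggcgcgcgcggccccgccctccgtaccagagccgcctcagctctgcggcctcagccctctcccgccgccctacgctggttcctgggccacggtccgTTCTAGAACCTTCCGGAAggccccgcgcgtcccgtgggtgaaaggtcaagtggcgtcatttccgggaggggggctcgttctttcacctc
The 18 bases in capitals lay from 89 to 72 bases before the Hspe1 start and from 144 to 127 bases before the Hspd1 start. With both strands read, GAANNTTCNNGAA was found upstream of 0.514% of 27025 genes and of 2 of the 7 heat shock genes, which were this pair sharing 1 stretch. The shorter form GAANNTTC, which the longer one contains, was found upstream of 7.73% of genes and of 5 of the 7: Hspa1a, Hspa1b, Hspb1, Hspd1 and Hspe1. The form TTCNNGAA, also contained in the longer one, was found upstream of 8.11% of genes and of 3 of the 7, Hsph1 (TTCTCGAA), Hspd1 and Hspe1. Hspb1 held GAAGTTTC and GAACCTTC within 117 bases of its start, and the Dnajb1 windows held none of these letters. CCAAT was found upstream of 37.5% of genes and of 4 of the 7. These matches describe the letters in the windows and no binding was measured.

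Across the series, the median log2 signal of an array ran from 5.80 to 6.72. It did not exceed 6.06 in A2C12 or in the pair labelled cRAF_cMYC 1, and was at least 6.33 on the others. The filter kept 10916 of 18193 genes, and counts of markers above it are read against that share. In these cells, labelled lung carcinoma, 4 of 7 epithelial markers were above the filter, near that share (Krt19 at 9.58 to 12.42). Cdh1, at 3.37 to 6.97, was below the filter. All 8 fibroblast markers were above it in the mean of the 18 arrays, with Vim at 13.91 to 14.75. Thy1, at 5.11 to 12.18, was not above it on every array. Of the other lists, 1 of 7 alveolar and airway markers and 1 of 5 endothelial markers were above the filter. The leukocyte list had 4 of 7 above it, as many as the epithelial list. Csf1r, at 7.23 to 11.01, was among them and Ptprc, at 3.15 to 4.72, was not. Both arrays labelled betaD5 replicate 1 resembled the cRAF_cMYC arrays, and both labelled cRAF_cMYC replicate 3 resembled the betaD5 arrays. The non-SP array labelled betaD5 replicate 1 correlated at 0.982 with its nearest cRAF_cMYC array. Among betaD5 arrays of other replicate numbers its highest correlation was 0.925, while its same-numbered SP partner reached 0.99. For the non-SP array labelled cRAF_cMYC replicate 3, the highest correlation with a betaD5 array was 0.988. Among cRAF_cMYC arrays of other replicate numbers the highest was 0.929, and its same-numbered SP partner reached 0.992. Counts of calls between lines on the deposited values are therefore given with and without these pairs, below called the pairs in doubt. Calls of single genes are given without them for some genes only. The 3′ to 5′ difference of the Gapdh control probe sets (log2) was 0.76 and 0.97 in the betaD5 SP arrays 2 and 3 and at most 0.56 elsewhere. For the Actb control probe sets it was 1.06 and 0.95 in those arrays and at most 0.74 elsewhere.

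The inducible Hsp70 genes gave lower signals in SP than in non-SP cells. Hspa1a, whose product is the stress-inducible cytosolic Hsp70, was lower in SP cells in 9 of 9 same-numbered pairs, and Hspa1b, its near-identical neighbour, in 8 of 9. The mean difference over the 3 lines was -0.62 for Hspa1a (log2; SD over the 9 pairs 0.46), which is 1.54-fold lower, and -0.29 for Hspa1b (SD 0.27), which is 1.22-fold lower. These differences were known when the list was drawn up and have no test here. The share of all genes with the same direction in all 9 pairs was not counted, so 9 of 9 cannot be called particular to Hspa1a. In bulk RNA, fewer cells that express a gene and less of its RNA per cell cannot be told apart.

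For Hspa1a (its single probe set), the log2 signals of A2C12 replicates 1, 2 and 3 were 8.35, 7.78 and 8.53 in non-SP and 7.92, 7.50 and 8.38 in SP cells. In betaD5 they were 7.44, 7.22 and 7.29 in non-SP and 6.41, 6.68 and 6.62 in SP cells. In cRAF_cMYC they were 7.65, 7.70 and 5.35 in non-SP and 6.88, 6.13 and 5.18 in SP cells. The fractions did not overlap in betaD5, and they overlapped in A2C12 and cRAF_cMYC, where the pair labelled replicate 3 stood lowest of all 18 arrays. These signals are low: the mean of Hspa1a over the 18 arrays was 7.17, and the filter lay at 6.53. The pair labelled cRAF_cMYC 3 and betaD5 SP array 1 were below that level. The betaD5 SP signals lay near the medians of all probe sets on those arrays, 6.48, 6.59 and 6.65. The pair differences ran from -0.42 to -0.15 in A2C12, from -1.03 to -0.55 in betaD5 and from -1.57 to -0.17 in cRAF_cMYC. The line means were -0.28, -0.75 and -0.84. The difference was -0.69 without the pairs labelled betaD5 1 and cRAF_cMYC 3, and -0.72 without the betaD5 pairs whose SP arrays had the raised 3′ to 5′ difference. Whether the differences of the 3 lines differ from each other was not tested.

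For Hspa1b, A2C12 gave 12.74, 12.62 and 12.70 in non-SP and 12.70, 12.37 and 12.62 in SP cells. In betaD5 the signals were 12.20, 12.84 and 13.11 in non-SP and 11.64, 12.95 and 12.73 in SP cells. In cRAF_cMYC they were 11.82, 12.67 and 12.51 in non-SP and 11.19, 12.08 and 12.34 in SP cells. The fractions overlapped in every line, and betaD5 pair 2, at 0.11, was the single pair with the higher signal in SP cells. On each of the other 2 Hspa1b probe sets, all 9 pairs were lower in SP cells, with a mean difference of -0.41. On one of them the betaD5 pair 1 lay at 11.18 and 10.59, while the other betaD5 arrays lay between 12.23 and 12.73. The Hspa1a and Hspa1b transcripts are nearly identical, so how far their probe sets measure each gene apart is uncertain.

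**Figure D1:**
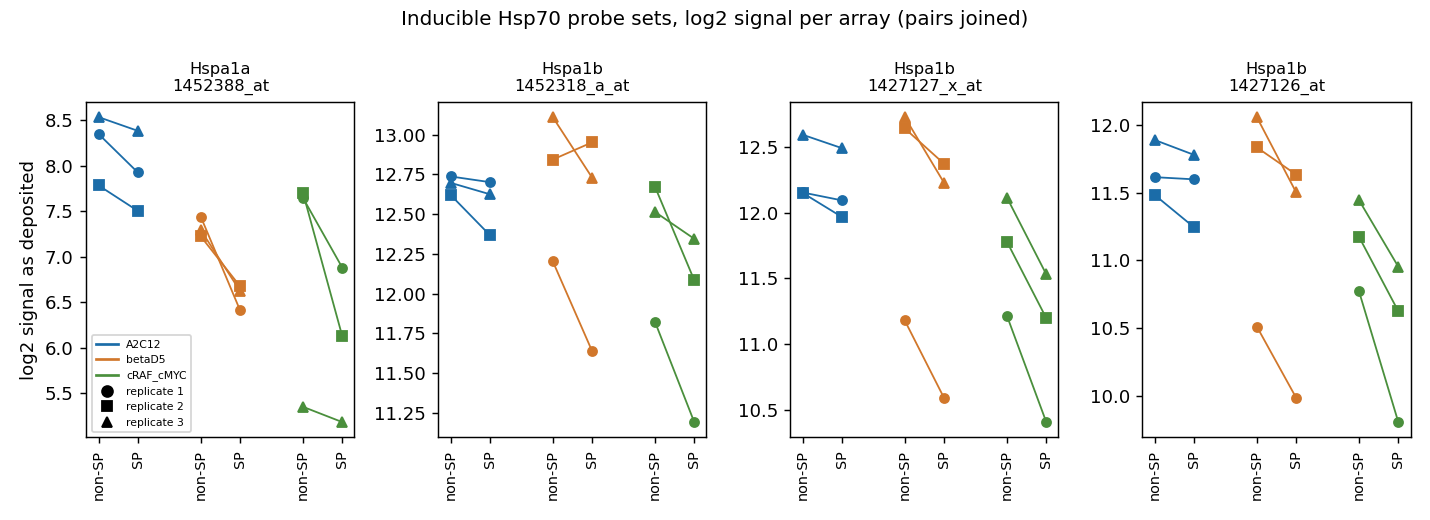
Log2 signal as deposited (vertical axis, one scale per panel) of Hspa1a and of the 3 Hspa1b probe sets on each array, by line (colour) and replicate number (symbol), with lines joining the non-SP and SP arrays of one number. Every line slopes down from non-SP to SP except betaD5 replicate 2 on the first Hspa1b panel, which is the probe set with the highest mean.

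For the constitutive Hsp70 and for the cofactors of Hsp70, the mean differences were nearer to 0, and their difference from that of Hspa1a was not tested. Hspa8, the constitutive cytosolic Hsc70, differed by 0.03 (log2) in the mean of the lines (SD over pairs 0.13), and 4 of 9 pairs were lower in SP cells. Its non-SP signals were 13.90, 13.71 and 13.93 in A2C12, 14.79, 14.49 and 14.58 in betaD5 and 14.10, 14.70 and 14.54 in cRAF_cMYC. The SP signals were 13.83, 13.67 and 13.79 in A2C12, 14.80, 14.79 and 14.61 in betaD5 and 14.09, 14.78 and 14.63 in cRAF_cMYC. Its other 3 probe sets gave 0.05, 0.08 and -0.18. Hsph1, the Hsp110 exchange factor of Hsp70, differed by 0.11 (SD 0.16), with 2 of 9 pairs lower in SP cells, and by 0.30 on its other probe set. Dnajb1, the Hsp40 that recruits Hsp70 to its clients, differed by -0.08 (SD 0.25), with pairs on both sides of 0 in every line, and by -0.10 on its other probe set, with 6 of 9 pairs lower.

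Hsp90aa1, the inducible cytosolic Hsp90, differed by 0.05 (log2; SD over pairs 0.07), with 2 of 9 pairs lower in SP cells, and its other 4 probe sets lay between -0.04 and 0.25. Hspb1, the small heat shock protein that holds unfolded proteins without ATP, differed by -0.10 (SD 0.12), with 7 of 9 pairs lower in SP cells. Its second probe set gave -0.08, also with 7 of 9 pairs lower.

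The mitochondrial pair gave small differences toward higher signals in SP cells. Hspe1 was higher in SP cells in 9 of 9 pairs by 0.06 to 0.20 (log2), with a mean of 0.12 (SD 0.05). The share of all genes higher in all 9 pairs was not counted. Hspd1 was higher in 8 of 9 pairs, with a mean of 0.11 (SD 0.11) and betaD5 pair 3 lower at -0.08. The Hspe1 signals were 13.07, 13.00 and 12.98 in A2C12 non-SP and 13.14, 13.13 and 13.04 in A2C12 SP cells. In betaD5 they were 13.92, 13.70 and 13.54 in non-SP and 14.03, 13.80 and 13.74 in SP cells. In cRAF_cMYC they were 13.22, 14.06 and 13.38 in non-SP and 13.30, 14.19 and 13.56 in SP cells. The fractions overlapped in every line. The other Hspe1 probe set differed by 0.03 and was lower in SP cells in 3 of 9 pairs.

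**Figure D2:**
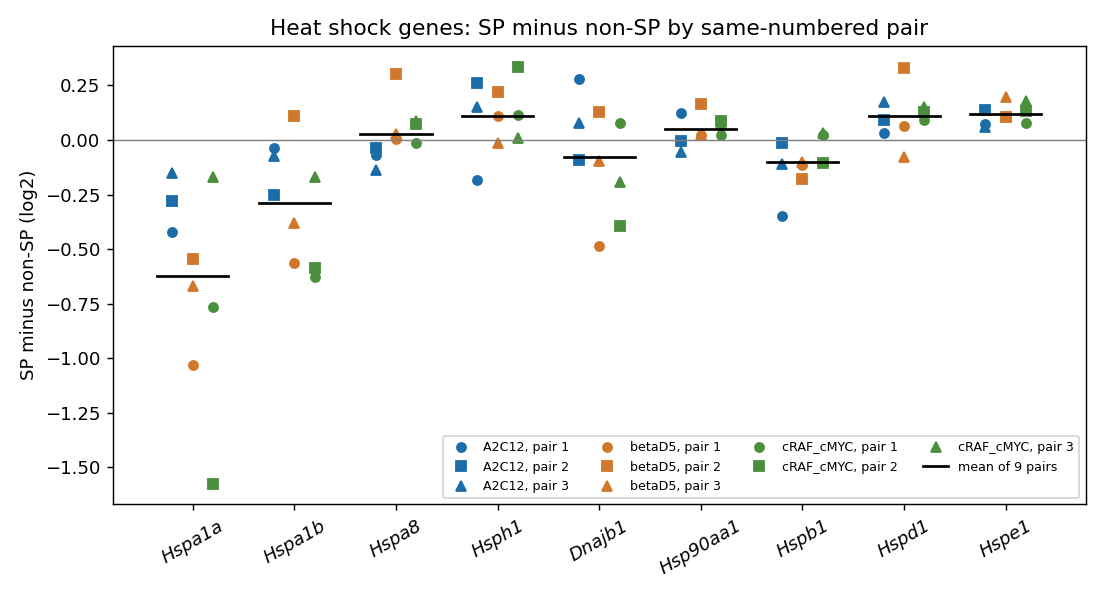
SP minus non-SP difference in log2 signal (vertical axis) for the 9 measured heat shock genes, 1 point per same-numbered pair, coloured by line, with a bar at the mean of the 9 pairs. Hspa1a lies below 0 in all 9 pairs, with a mean of -0.62, and Hspe1 above 0 in all 9, with a mean of 0.12. How many of all genes do so was not counted.

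No gene in the whole table passed the test in any comparison of the fractions. With limma and Benjamini-Hochberg adjustment at 0.05, 0 of 10916 genes (0%) were called in the mean of the lines, in A2C12, in betaD5 and in cRAF_cMYC, so 0 of the 9 heat shock genes were called. At an unadjusted p under 0.05 the counts were 36, 1, 14 and 18 genes. The fit with the replicate number as a block also called 0 genes in each, with 1437, 187, 1298 and 899 at an unadjusted p under 0.05. The median difference of the 9 genes in the mean of the lines was 0.03 and that of all genes was 0.01, and 5 of the 9 and 54.3% of all genes lay above 0.

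The other genes of the pathway gave small differences between the fractions. The SEs given here are from the fit without the block. The median SE over all genes tested was 0.16 in that fit and 0.07 with the block. Of the 4 genes on the heat shock factor list, 3 had a probe set and 2 were above the filter. Hsf1 and Hsf4 were not among these 2, and not both of them had a probe set. Hsf2 differed by 0.37 (SE 0.29) and Hsbp1, a binding protein that restrains Hsf1, by -0.10. Among 12 stress-inducible cochaperones and small heat shock proteins, 11 lay above 0, with a median of 0.14, and Chordc1, an Hsp90 cochaperone, differed by 0.17 (SE 0.11). Of 8 constitutive cochaperones measured, 6 lay above 0 with a median of 0.04, and Stub1, the ubiquitin ligase that acts on Hsp70 clients, differed by -0.10 (SE 0.14). All 8 subunits of TRiC, the cytosolic chaperonin, lay above 0, with a median of 0.08 and Cct6a at 0.13 (SE 0.12). Of 11 mitochondrial chaperones and proteases, 9 lay above 0, with a median of 0.12, and Grpel2, an exchange factor of mitochondrial Hsp70, differed by 0.42 (SE 0.17). In limma's test 0 genes of each list were called, against 0% of all genes.

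The 5 genes whose pair differences were most like those of Hspa1a were in none of the lists used here. By Pearson's r over the 9 pair differences they were Pex11a (0.926), Tnfrsf13c (0.910), Sulf2 (0.909), Slc24a3 (0.901) and Ubxn7 (0.882). Pex11a acts in peroxisome division, Tnfrsf13c is the BAFF receptor and Sulf2 trims sulfate from heparan sulfate. A high r does not mean a lower signal in SP cells: Pex11a and Sulf2 were lower in 6 of 9 pairs (means -0.26 and -0.15), Slc24a3 in 4 (-0.04), and Tnfrsf13c and Ubxn7 in 2 (0.02 and 0.12). Hspa1b reached 0.71, with 1.43% of genes higher, and Dnajb1 0.598, with 4.35% higher. The 9 pairs share 3 lines, and these values are a description with no test.

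The lines differed more than the fractions, and part of that difference was common to most genes on the arrays. In non-SP cells, 7 of the 9 heat shock genes were called higher in betaD5 than in A2C12 on the deposited values, against 53.1% of all genes called higher (2.11% were called lower, 55.2% in all). The median difference was 0.78 (log2) for the 9 genes and 0.71 for all genes. For cRAF_cMYC against A2C12, 4 of the 9 were called higher, against 26.3% of all genes called higher (2.28% lower, 28.5% in all), and the medians were 0.50 and 0.45. Without the pairs labelled betaD5 1 and cRAF_cMYC 3, 6 of the 9 were called higher and 1 lower in betaD5, against 49.5% and 4.02% of all genes (53.6% in all). In cRAF_cMYC 1 was called higher, Hsph1, against 20.8% of all genes (24.1% in both directions). With every array kept, 2 of the 9 were called higher in cRAF_cMYC without the filter, against 19.4% of all genes. Without the trend it was also 2 of the 9, against 25.8%. For cRAF_cMYC against betaD5, 0 of the 9 and 0% of all genes were called by limma, with 689 genes at an unadjusted p under 0.05. The betaD5 and cRAF_cMYC comparisons share the A2C12 arrays. After quantile normalization, which gives every array the same distribution, the median of all genes was 0.03 and 0 against A2C12, and 2 of the 9 genes were called higher and 1 lower in each line, against 28.5% of all genes called in betaD5 (14.8% higher, 13.7% lower) and 22% in cRAF_cMYC (11% higher, 11% lower). On the deposited values 5791 genes were called higher and 230 lower in betaD5, and 2866 higher and 249 lower in cRAF_cMYC. After quantile normalization the splits were 1616 higher and 1492 lower in betaD5, and 1205 higher and 1201 lower in cRAF_cMYC.

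Hsph1 was lower in A2C12 than in both other lines under each scaling. Its A2C12 signals were 11.09, 10.70 and 10.37 in non-SP and 10.90, 10.96 and 10.52 in SP cells. In betaD5 they were 12.03, 12.08 and 12.23 in non-SP and 12.14, 12.30 and 12.22 in SP cells. In cRAF_cMYC they were 11.72, 12.35 and 11.85 in non-SP and 11.83, 12.68 and 11.86 in SP cells. No A2C12 array overlapped an array of the other lines, whose own ranges overlapped. How many of all genes lay apart in this way was not counted. Of all genes, 87.6% were higher in non-SP cells of betaD5 than of A2C12, and 81.3% in those of cRAF_cMYC. The non-SP difference of Hsph1 from A2C12 was 1.39 (log2; SE 0.25, adjusted p = 0.000333, limma) in betaD5 and 1.25 (SE 0.25, adjusted p = 0.0017, limma) in cRAF_cMYC. After quantile normalization it was 0.61 (adjusted p = 0.0243, limma) and 0.73 (adjusted p = 0.0116, limma), and without the pairs in doubt 1.44 (adjusted p = 0.000883, limma) and 1.31 (adjusted p = 0.00404, limma). The other Hsph1 probe set was not called, at 0.68 (adjusted p = 0.0743, limma) and 0.61 (adjusted p = 0.155, limma) as deposited and -0.04 and 0.13 after quantile normalization.

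Hspa8 was higher than in A2C12 by 0.78 (SE 0.18, adjusted p = 0.0019, limma) in betaD5 and by 0.60 (SE 0.18, adjusted p = 0.018, limma) in cRAF_cMYC. No A2C12 array overlapped the other 12, a separation that was not counted over all genes. After quantile normalization the differences were 0.23 (adjusted p = 0.0324, limma) and 0.22 (adjusted p = 0.0472, limma). After centring on array medians neither was called, at 0.11 (adjusted p = 0.539, limma) and 0.23 (adjusted p = 0.211, limma). Without the pairs in doubt the betaD5 call was kept, at 0.69 (adjusted p = 0.0129, limma), and the cRAF_cMYC call was lost, at 0.56 (adjusted p = 0.0667, limma). Its other probe sets spread from -0.23 to 1.06 in betaD5 after quantile normalization, so the probe sets of Hspa8 disagreed in direction.

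Hspa1a ran the other way, with its highest median in A2C12. Its medians over the 6 arrays of a line were 8.14 in A2C12, 6.95 in betaD5 and 6.50 in cRAF_cMYC, and no betaD5 array reached the lowest A2C12 array at 7.50. On the deposited values the non-SP difference from A2C12 was -0.90 (SE 0.50, adjusted p = 0.131, limma) in betaD5 and -1.32 (SE 0.50, adjusted p = 0.0561, limma) in cRAF_cMYC, so neither was called. After quantile normalization both were called lower, by -1.60 (adjusted p = 0.0443, limma) and -1.73 (adjusted p = 0.0378, limma), and after centring on array medians 1 was, with -1.57 (adjusted p = 0.0545, limma) and -1.69 (adjusted p = 0.0462, limma). The array labelled cRAF_cMYC replicate 3 carried much of the cRAF_cMYC value on the deposited scale, which was -0.55 (adjusted p = 0.197, limma) without the pairs labelled betaD5 1 and cRAF_cMYC 3. In betaD5 the value without those pairs was -0.96 (adjusted p = 0.0152, limma). With quantile normalization and without those pairs the values were -1.62 (adjusted p = 0.00373, limma) in betaD5 and -0.92 (adjusted p = 0.0745, limma) in cRAF_cMYC. Hspa1b differed from A2C12 by 0.03 in betaD5 and -0.35 in cRAF_cMYC as deposited, and by -0.70 (adjusted p = 0.0942, limma) and -0.82 (adjusted p = 0.0617, limma) after quantile normalization, so its direction in betaD5 turned. With quantile normalization and without those pairs it was called lower in both, by -0.41 (adjusted p = 0.0229, limma) and -0.85 (adjusted p = 0.000335, limma).

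**Figure D3:**
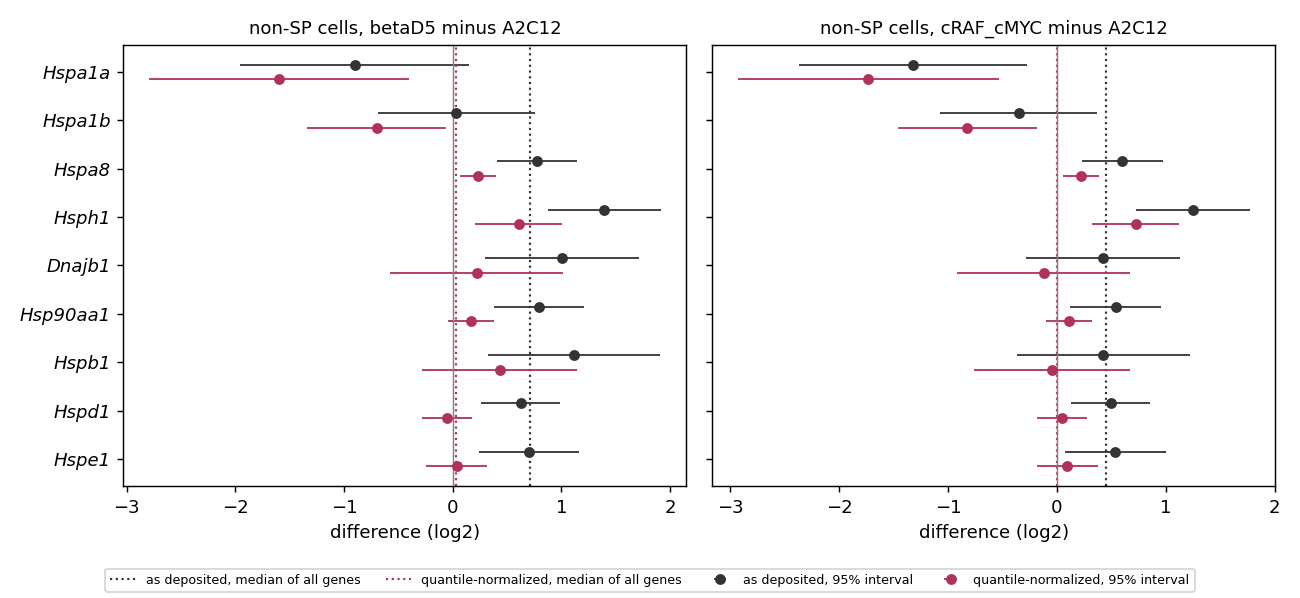
Difference in log2 signal from A2C12 (horizontal axis) in non-SP cells of betaD5 (left) and cRAF_cMYC (right), as deposited (dark) and after quantile normalization (red), with 95% intervals from limma and dotted lines at the median of all genes. On the deposited values most heat shock genes lie near the median of all genes, at 0.71 and 0.45, while Hspa1a lies at -0.90 and -1.32.

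For Dnajb1 and Hspb1, the pairs labelled betaD5 1 and cRAF_cMYC 3 stood apart from the other arrays of their lines. The Hspb1 non-SP signals were 12.68, 12.38 and 12.44 in A2C12, 13.12, 13.88 and 13.86 in betaD5 and 12.10, 12.99 and 13.69 in cRAF_cMYC. The SP signals were 12.33, 12.36 and 12.33 in A2C12, 13.00, 13.70 and 13.76 in betaD5 and 12.12, 12.88 and 13.72 in cRAF_cMYC. Thus the pair labelled betaD5 1 was the lowest of its line, and the pair labelled cRAF_cMYC 3 was the highest of its line. For Dnajb1, the pair labelled cRAF_cMYC 3 lay at or above 11.81, while the other cRAF_cMYC arrays lay between 10.62 and 11.08. With every array kept, cRAF_cMYC minus betaD5 in non-SP cells was -0.69 for Hspb1 and -0.58 for Dnajb1, and neither was called. Without those pairs, Hspb1 differed by -1.32 (adjusted p = 0.00628, limma) and Dnajb1 by -1.08 (adjusted p = 0.0119, limma), 2 of the 9 genes against 11.2% of all genes. These pairs were left out after their resemblance was seen. After quantile normalization as well, Hspb1 was at -1.12 (adjusted p = 2.01e-05, limma) and Dnajb1 at -0.81 (adjusted p = 0.0786, limma).

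Against A2C12, Hspb1 was higher in betaD5 by 1.12 (adjusted p = 0.0197, limma) and Dnajb1 by 1.003 (adjusted p = 0.0187, limma) on the deposited values. Both calls were lost after quantile normalization, at 0.43 (adjusted p = 0.359, limma) and 0.22 (adjusted p = 0.697, limma). With quantile normalization and without the pairs in doubt, Hspb1 was called higher in betaD5, by 0.74 (adjusted p = 0.000116, limma), and lower in cRAF_cMYC, by -0.38 (adjusted p = 0.0145, limma).

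**Figure D4:**
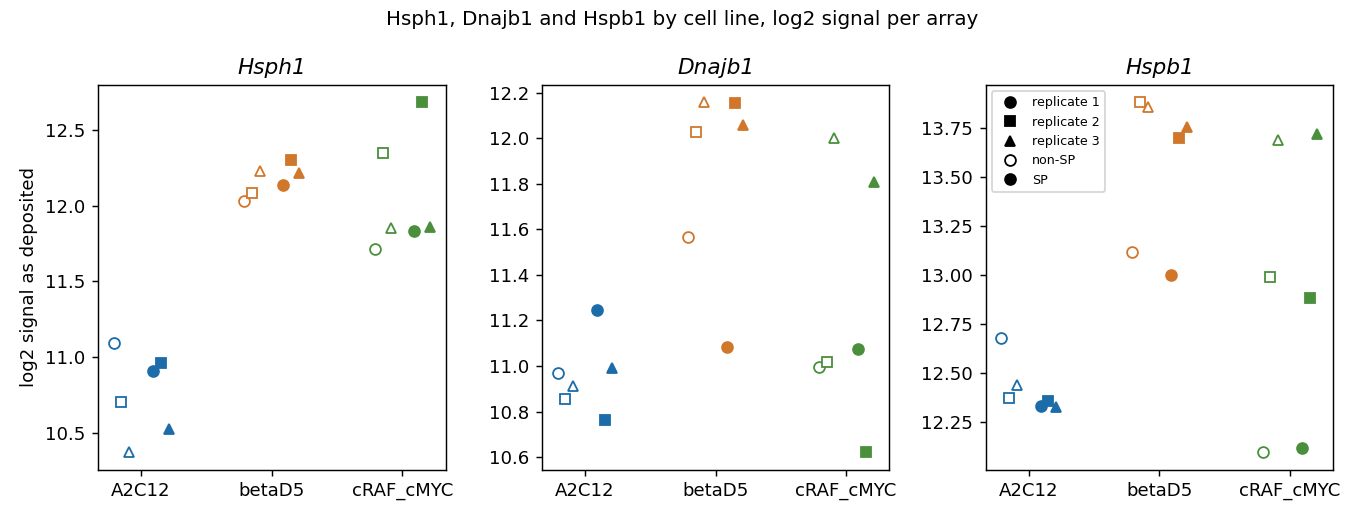
Log2 signal as deposited (vertical axis, one scale per panel) of Hsph1, Dnajb1 and Hspb1 on each of the 18 arrays, by line (horizontal axis), replicate number (symbol) and fraction (open, non-SP; filled, SP). Hsph1 is lowest in all 6 A2C12 arrays, and for Dnajb1 and Hspb1 the triangles of cRAF_cMYC lie among the betaD5 arrays.

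On the probe sets used, the differences of Hsp90aa1 and of the mitochondrial pair between lines lay near the median of all genes. Hsp90aa1 was higher than in A2C12 by 0.80 (adjusted p = 0.0036, limma) in betaD5 and by 0.54 (adjusted p = 0.0497, limma) in cRAF_cMYC, and by 0.17 and 0.11, without a call, after quantile normalization. The cRAF_cMYC call was lost in 22 of 28 alternatives, among them without the pairs in doubt, at 0.50 (adjusted p = 0.141, limma). Another Hsp90aa1 probe set differed more, by 2.13 (adjusted p = 0.00111, limma) in betaD5 and 1.31 (adjusted p = 0.0379, limma) in cRAF_cMYC, and after quantile normalization by 1.40 (adjusted p = 0.0222, limma) and 0.83 (adjusted p = 0.185, limma). The remaining one above the filter was not called in either line, at 0.34 and 0.09 as deposited. Hspd1 was higher by 0.63 (adjusted p = 0.00639, limma) and 0.50 (adjusted p = 0.0397, limma), and its values after quantile normalization were -0.05 and 0.05. Its cRAF_cMYC call was lost in 15 of 28 alternatives, among them without the pairs in doubt, at 0.49 (adjusted p = 0.109, limma). Hspe1 was higher by 0.71 in betaD5 (adjusted p = 0.0127, limma), at 0.54 in cRAF_cMYC (adjusted p = 0.0725, limma), and at 0.04 and 0.10 after quantile normalization. Without the pairs in doubt it was at 0.61 in betaD5 (adjusted p = 0.0533, limma). The medians over the 6 arrays of a line put A2C12 lowest for all 3 genes, at 13.24 for Hsp90aa1, 13.09 for Hspd1 and 13.05 for Hspe1. The ranges of betaD5 and cRAF_cMYC overlapped for each of them.

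The other lists are read against the share of all genes called higher, which was 53.1% in betaD5 and 26.3% in cRAF_cMYC on the deposited values, 14.8% and 11% after quantile normalization, and 49.5% and 20.8% without the pairs in doubt. Of the 11 mitochondrial chaperones and proteases, 8 were called higher in betaD5 and 5 in cRAF_cMYC, 4 and 3 after quantile normalization, and 8 and 4 without those pairs. Afg3l2, a subunit of an inner membrane protease, was higher by 2.23 (SE 0.30) in betaD5 and 1.77 (SE 0.30) in cRAF_cMYC, and by 1.54 and 1.32 after quantile normalization. Hspa9, the mitochondrial Hsp70, was higher by 1.45 (SE 0.21) and 1.27 (SE 0.21), and by 0.70 and 0.76 after quantile normalization. Both genes were called by limma in each of these comparisons and without the pairs in doubt.

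Of the 12 stress-inducible cochaperones, 8 were called higher in betaD5 and 5 in cRAF_cMYC, 1 in each after quantile normalization, and 8 and 2 without the pairs in doubt. The 1 gene called after quantile normalization was Hspa4l, an Hsp110 relative of Hsph1, at 1.47 and 1.28, against 2.11 and 1.68 as deposited. Chordc1 was higher by 1.13 and 0.95 as deposited, and was not called after quantile normalization.

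Of the 8 constitutive cochaperones, 5 were called higher in betaD5 and 2 in cRAF_cMYC, 1 in each after quantile normalization, and 4 and 1 without the pairs in doubt. Dnaja2, a J-domain partner of Hsc70, was higher by 1.59 and 1.15 and, still called after quantile normalization, by 0.86 and 0.66. St13, an Hsp70-interacting protein, was higher by 0.75 and 0.62 on the deposited values. After quantile normalization 1 gene was called lower in betaD5 and 2 in cRAF_cMYC, which are named here after their values were seen. They were the Hsp90 cochaperones Sugt1, at -0.81 and -0.79, and, in cRAF_cMYC, Cdc37 at -0.74.

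All 8 TRiC subunits were called higher in betaD5 and 6 in cRAF_cMYC, 0 in either after quantile normalization, and 8 and 3 without the pairs in doubt. Examples on the deposited values are Cct2 at 0.74 and 0.58, Cct7 at 0.998 in betaD5 and Cct6a at 0.78 in cRAF_cMYC. On the heat shock factor list, the binding protein Hsbp1 was called higher in both lines, by 1.18 and 0.77, and the factor Hsf2 in betaD5 by 1.30. Neither was called after quantile normalization, and without the pairs in doubt both were called in betaD5 and neither in cRAF_cMYC.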

How the data were processed

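Total RNA of 18 sorted samples, 200 ng each, was made into 10 µg of labelled cRNA for Affymetrix 3′ arrays, per the labels' protocols. The deposited values are log2 signals of 45101 probe sets, between 2.28 and 15.28. The submitters' processing notes name Affymetrix Expression Console, and its version, algorithm and normalization are not given in the sources used here. With signals in place of counts, the precision rests on the number of arrays. Names came from a platform annotation updated through RefSeq gene IDs: 34945 probe sets had 1 symbol, 932 several and 9160 none, and 34741 were matched by ID. Each gene kept its probe set with the highest mean, and the 40% of genes with the lowest means (under 6.53) were left out.

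A limma (3.58.1, R 4.3.3) fit of the 6 group means with eBayes trend, checked on simulated data, was adjusted by Benjamini-Hochberg over all genes tested. Same-numbered arrays deviated together (r from 0.426 to 0.952 in all 9 pairs), so a fit with the replicate number as a block was an alternative. In betaD5, however, non-SP array 3 was closer to an SP array of another number (0.684) than to its own (0.600). For non-SP array 2 the values were 0.567 and 0.618. Scaling, filter, probe set choice and left-out arrays were others. Named genes were all members, of each other list the 2 called genes with the smallest p (with none called between the fractions, the 1 with the smallest p), and the 5 genes most like Hspa1a. Members and lists were chosen with earlier results of these data known.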

Additional observations from a re-analysis of the deposited data

Results flagged for a closer look

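Hspa8 lay on opposite sides of 0 in 2 lines. Its SP minus non-SP difference was -0.08 (log2) in A2C12, where all 3 pairs were lower in SP cells, and 0.11 in betaD5, where all 3 pairs were higher. The betaD5 value rests on pair 2, at 0.30, and is 0.02 without it. Of the other 3 Hspa8 probe sets, 1 lay below 0 in both lines (-0.22 and -0.15), and only 1 had all its pairs on opposite sides in the 2 lines as here. The difference between the lines was not tested.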

How the results depend on the processing

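Between the fractions, limma's count of 0 genes in the mean of the lines became 3 with the replicate block and a 3′ to 5′ covariate. That covariate was the mean of the Gapdh and Actb 3′ to 5′ differences of an array. The count became 1 with the block and without betaD5 pairs 2 and 3. In betaD5 it became 34 with that covariate and 15 with the block and without the pairs labelled betaD5 1 and cRAF_cMYC 3. Leaving out 1 pair at a time under the block gave 0 to 1 genes in the mean of the lines and 0 to 46 in betaD5 (46 without pair 1, 4 without pair 3). The block changed no other call between the fractions. Hspa1a ranged from -0.88 to -0.48 and Hspa1b from -0.38 to -0.15 in the mean of the lines. For betaD5 against A2C12 the 6021 calls became 3108 after quantile normalization, 2796 after centring on array medians and 10568 without a filter, and 4517 to 6482 with 1 array left out. For cRAF_cMYC against A2C12 the 3115 calls ranged from 1562 to 4986 with 1 array left out: 1997 and 1708 without A2C12 non-SP array 2 or 3, and 4986, 1562 and 1979 without cRAF_cMYC non-SP array 1, 2 or 3. For cRAF_cMYC against betaD5 the 0 calls became 1222 without the pairs labelled betaD5 1 and cRAF_cMYC 3 and 2443 with quantile normalization as well. Of 753 values of the 9 genes in the line comparisons, 638 kept direction and side of the threshold, 64 lost the call, 20 gained it and 31 changed sign. Against A2C12 in betaD5, the sign turned for Hspa1b at -0.70 (quantile), -0.63 (centring), -0.09 (mean of all probe sets) and -0.04 (both fractions with a random block of pairs), and for Hspd1 at -0.05 (quantile) and -0.04 (centring). Against A2C12 in cRAF_cMYC it turned for Dnajb1 at -0.12 and Hspb1 at -0.05 (quantile). In cRAF_cMYC against betaD5 it turned for Hsph1 at 0.12, Hspd1 at 0.10 and Hspe1 at 0.06 (quantile), and for Hspa8 at 0.12, Hsph1 at 0.15, Hsp90aa1 at 0.04, Hspd1 at 0.16 and Hspe1 at 0.12 (centring). Without the pairs in doubt it turned there for Hspa1a at 0.42 and Hspe1 at 0.02. With quantile normalization as well, it turned against A2C12 for Hspa1b at -0.41 and Hspe1 at -0.04 in betaD5 and for Dnajb1 at -0.39 and Hspb1 at -0.38 in cRAF_cMYC, and in cRAF_cMYC against betaD5 for Hspa1a at 0.70, Hspa8 at 0.01, Hsph1 at 0.18, Hspd1 at 0.08 and Hspe1 at 0.28. Of these 31 values, Hspa1b at -0.41 and Hspb1 at -0.38 were called lower. With 1 array left out, Hspa1b in betaD5 against A2C12 ran from -0.16 to 0.29, and in cRAF_cMYC against betaD5 Hspa1a ran from -0.82 to 0.36 and Hspd1 from -0.26 to 0.01. Hsph1 kept its call against A2C12 in each of 28 alternatives, at 0.61 to 1.58 in betaD5 and 0.73 to 1.44 in cRAF_cMYC. These alternatives did not include its other probe set alone, which was not called in either line. The causes were not tested. The alternatives without the pairs labelled betaD5 1 and cRAF_cMYC 3 under the block or quantile normalization, without betaD5 pairs 2 and 3, and the block with quantile normalization were chosen after seeing the data.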
